A study of Mus musculus with 9 samples.

Results

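The mitochondrial ribosomal protein genes were read in HL-1 cells, a mouse atrial cardiomyocyte line, as every listed gene symbol that starts with Mrpl or Mrps followed by a digit. Of 81 such symbols, 4 with a hyphen, which name pseudogenes, were left out. The remaining 77 genes, 48 Mrpl (large subunit) and 29 Mrps (small subunit), are described here among 25175 symbols listed. All 77 had at least 1 FPKM (fragments counted relative to the length of the transcript and to the size of the library) in at least 3 of the 9 libraries, and so all 77 were among the 11337 genes tested. None lay near that limit, since the lowest value of any of them in any library was 3.99 FPKM, for Mrpl1.

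Poly(A) RNA was sequenced in 3 libraries per group. The cells had been kept for 24 h with 5 µM ivermectin, with 10 µM importazole or with the vehicle, 0.1% DMSO. Ivermectin blocks nuclear import through importin α/β, and importazole is an inhibitor of importin β. HL-1 is a single transformed line, and the labels do not say whether the 3 libraries of a group came from separate cultures, so that p-values measure only the spread between these libraries.

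The mitochondrial ribosome makes the few proteins that the mitochondrial genome encodes, all of them core parts of the respiratory chain and ATP synthase. Its ribosomal RNAs come from the mitochondrial genome, but all of its proteins are encoded in the nucleus, made in the cytosol and imported. The large subunit forms peptide bonds and docks at the inner membrane, and the small subunit binds the messenger RNA and checks the codon. Heart muscle depends heavily on oxidative phosphorylation, and inherited variants of several of these genes cause cardiomyopathy in humans.

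The libraries listed between 11055 and 11200 genes at 1 FPKM or more, and their depth is unknown because FPKM carries no read numbers. All 8 cardiomyocyte markers examined were detected, with summed levels of 5173 to 5592 FPKM in ivermectin libraries, 5819 to 6295 FPKM in importazole libraries and 6226 to 7089 FPKM in vehicle libraries. Markers of fibroblasts summed to 36.2 to 38.3, 33.8 to 36.6 and 23.4 to 26.3 FPKM in the ivermectin, importazole and vehicle libraries, nearly all of it Ddr2. Endothelial and macrophage markers summed to at most 11.5 and 2.30 FPKM. Smooth muscle markers summed to 1158 to 1279 FPKM with ivermectin, 1173 to 1285 FPKM with importazole and 1347 to 1404 FPKM with vehicle, nearly all of it Acta2 and Tagln, while Myh11 had at most 0.119 FPKM. In bulk RNA, fewer cells of a type and less RNA per cell cannot be told apart. Ivermectin 3 and vehicle 2 stood apart in that the abundant transcript Yam1 was listed at 0 there, against 24050 to 41570 FPKM in the other 7 libraries. Summed FPKM ran from 365300 to 416700 over the 9 libraries. Values without these libraries are given below. The part that the markers or these libraries have in the results was otherwise not tested.

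The levels of the mitochondrial ribosomal protein genes spanned 29.04-fold in vehicle cells. The median of their vehicle means was 34.9 FPKM, against 10.1 FPKM over all genes tested. Of the 77, 68 had a vehicle mean of 10 to 100 FPKM, 6 lay above 100 FPKM and 3 below 10 FPKM. FPKM is scaled to transcript length, but the annotation, strand use and handling of reads with several matches are unknown. Levels of different genes are therefore set side by side as a description only. Across the 77 genes the vehicle level and the transcript length had a Spearman rho of -0.44, and the level and the GC content one of 0.40, both read in the same libraries and given as descriptions.

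By vehicle mean, the highest large subunit genes were Mrpl28, Mrpl51 and Mrpl42. In the treated groups Mrpl12, at means of 107.8 FPKM with ivermectin and 106.5 FPKM with importazole, lay above Mrpl42. Mrpl28, a homologue of a bacterial ribosomal protein, had 101.2, 125.3 and 150.3 FPKM in ivermectin cells, 123.7, 130.8 and 132.9 FPKM in importazole cells, and 151.6, 126.6 and 124.7 FPKM in vehicle cells. Mrpl51 averaged 124.6 FPKM with ivermectin, 128.9 FPKM with importazole and 129.8 FPKM with vehicle. Mrpl42 averaged 92.6, 96.7 and 105.1 FPKM in the same order, and has a near-identical pseudogene at 96.3% identity, so its counting is uncertain. For Mrpl28 and Mrpl51 the groups overlapped, and these 2 genes did not differ from each other beyond the spread of their libraries, while Mrpl42 lay below both in every vehicle library.

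By vehicle mean, the lowest large subunit genes were Mrpl1, Mrpl35 and Mrpl36. Mrpl1, whose bacterial homologue forms the stalk beside the exit of spent tRNA, had 5.41, 4.52 and 5.95 FPKM with ivermectin, 4.94, 4.35 and 5.17 FPKM with importazole and 4.57, 3.99 and 5.31 FPKM with vehicle. Mrpl35 averaged 8.34 FPKM with ivermectin, 7.62 FPKM with importazole and 7.80 FPKM with vehicle. Mrpl36 averaged 10.3, 9.96 and 9.02 FPKM in that order. In each of these the 3 groups overlapped, and Mrpl35 and Mrpl36 lay closer to each other than Mrpl1 did to either.

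The small subunit genes covered a narrower range, with vehicle means 9.49-fold apart, and are ranked here by vehicle mean. Mrps21, a homologue of a bacterial small subunit protein, was the highest, with 90.6, 85.8 and 88.2 FPKM in ivermectin cells, 102.7, 101.0 and 102.0 FPKM in importazole cells and 115.5, 108.4 and 94.4 FPKM in vehicle cells. Mrps24 followed at 98.9, 94.0 and 102.5 FPKM in the ivermectin, importazole and vehicle means, and Mrps16 at 110.9, 89.8 and 85.9 FPKM. At the low end stood Mrps2 with means of 12.7, 13.3 and 11.2 FPKM, Mrps22 with 15.8, 14.1 and 14.0 FPKM, and Mrps31 with 17.1, 14.2 and 14.5 FPKM. The order of the top 3 is not fixed across groups, because Mrps21 was the highest in importazole and vehicle cells and Mrps16 in ivermectin cells.

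**Figure D1:**
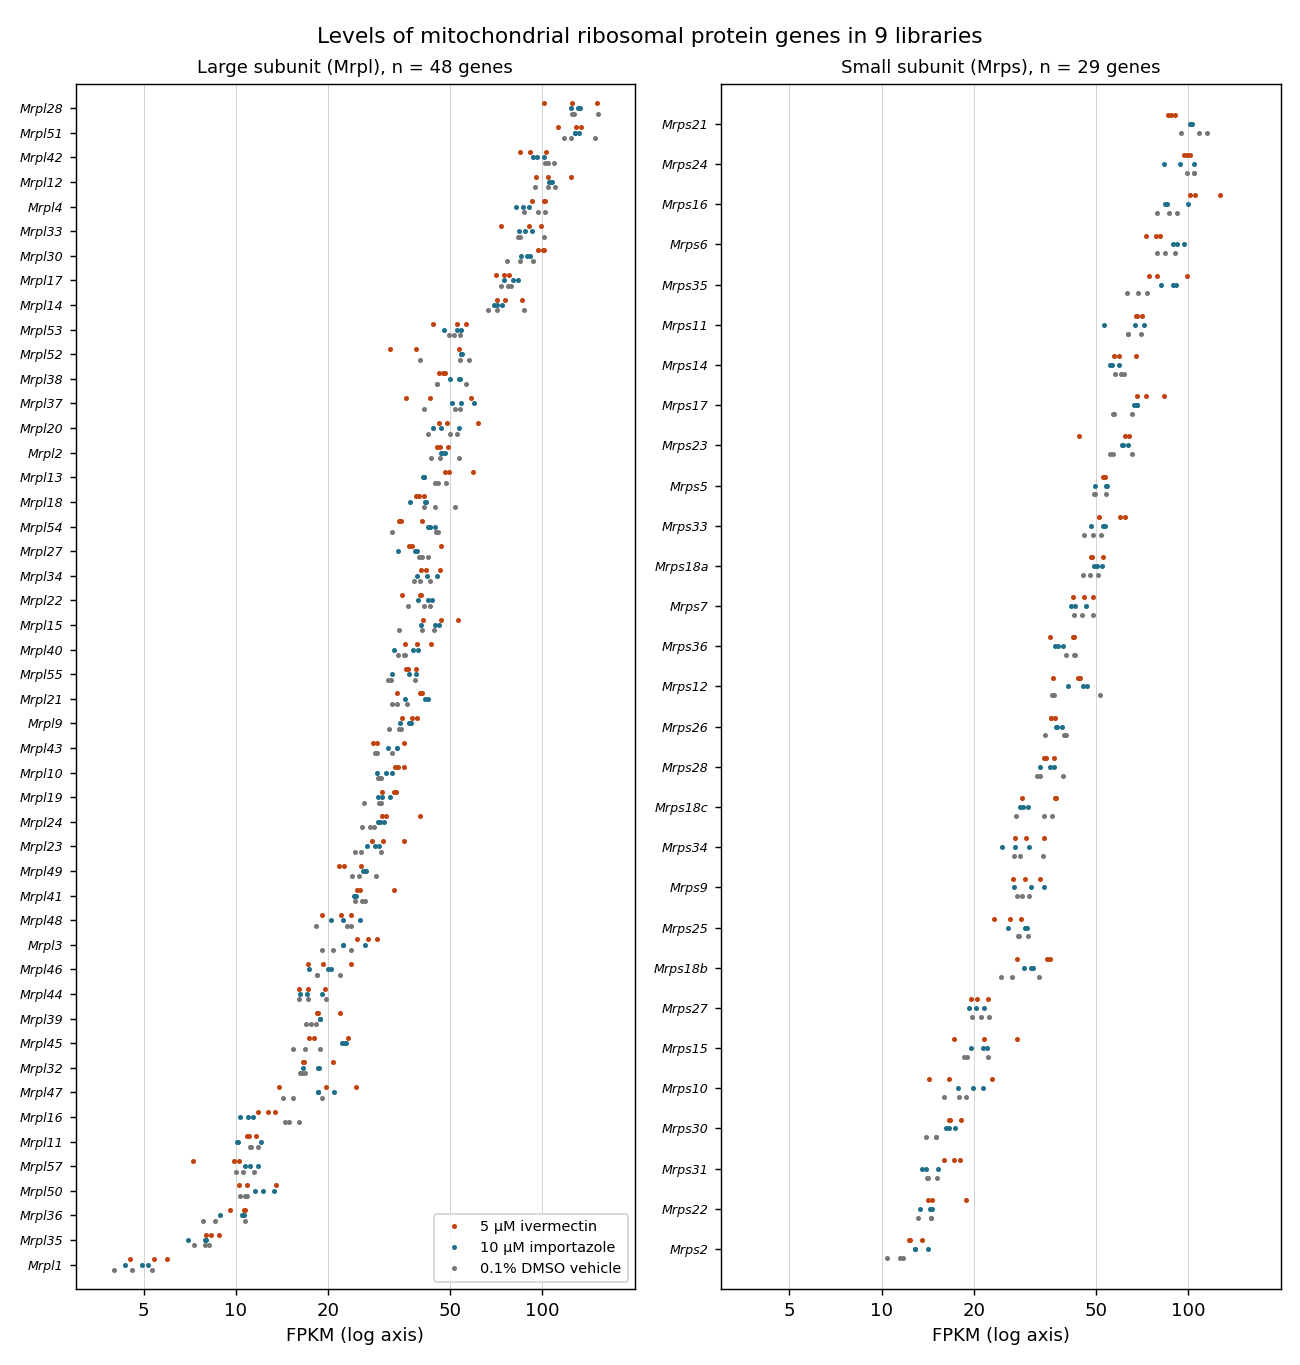
FPKM of every mitochondrial ribosomal protein gene in each of the 9 libraries (log axis), large subunit genes on the left and small subunit genes on the right, sorted by vehicle mean; each point is 1 library. The points of a gene sit close together beside the 29.04-fold range between genes, and the median gene varied 1.33-fold between its highest and lowest library.

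Between libraries the levels varied little. The highest of the 9 values of a gene was 1.33 times the lowest at the median, and at most 1.82 times, which was Mrpl52. Mrps5, which helps to keep decoding accurate, varied least, 1.10-fold, from 49.4 to 54.3 FPKM. The median SD within groups was 0.12 on the log2 scale, against 0.12 over all genes tested. It was 0.11 over the 7580 genes tested whose mean log2(FPKM + 1) over the 9 libraries lay in the same range. Across the 77 genes, Spearman's rho with the vehicle means was 0.987 for the ivermectin means and 0.991 for the importazole means, where both sides share the genes' own lengths and sequences.

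Small subunit genes had the higher median level, 41.4 FPKM in the vehicle means with quartiles of 27.9 and 59.8 FPKM, against 33.9 FPKM with quartiles of 19.1 and 48.9 FPKM for the large subunit. The quartile ranges overlapped widely. The large minus small difference in median log2(FPKM + 1) was -0.07, -0.28 and -0.09 in the ivermectin libraries, -0.03, 0.00 and -0.20 in the importazole libraries, and -0.23, -0.28 and -0.15 in the vehicle libraries. It was below 0 in 8 of the 9 libraries, and the ivermectin values overlapped those of both other groups. Summed over genes, the large subunit gave 1882 to 2262 FPKM and the small subunit 1232 to 1444 FPKM per library.

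Ivermectin against vehicle asks whether these messages differed after treatment with ivermectin. Whether import through importin α/β was blocked in these cells was not tested. No mitochondrial ribosomal protein gene passed the test, with 0 of 77 called at an adjusted p under 0.05 in limma (two-sided, Benjamini-Hochberg over the 11337 genes tested), against 4.31% of all genes tested (1.79% higher and 2.52% lower). At an unadjusted p under 0.05, 11 were higher and 4 lower, 19.5% of the 77, against 20.7% of all genes tested. For the 77 genes the median log2 change was 0.05, against 0.01 for the whole set of tested genes. It was 0.06 for the large subunit and 0.03 for the small subunit, with 30 of 48 and 20 of 29 genes above 0. The log2 changes ran from -0.30 for Mrpl52 to 0.36 for Mrps16.

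The 95% interval of the change lay within ±0.5 on the log2 scale for 71 of the 77 genes, 92.2%, against 79.8% of all genes tested. The intervals that reached past that bound were those of Mrpl3, Mrpl24, Mrpl47, Mrpl52, Mrps16 and Mrps35. For the other 71 genes a change beyond 0.5 in either direction lay outside the interval.

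The positive median of 0.05 moved with single libraries, and its sign rested on ivermectin 3. The median of the 77 differences from the vehicle mean was -0.04, 0.02 and 0.19 in ivermectin 1, 2 and 3, and 0.09, -0.02 and -0.07 in vehicle 1, 2 and 3. Without ivermectin 3 the median change was -0.00, and without both libraries that listed Yam1 at 0 it was also -0.00, with 38 of 77 genes above 0 in each, against 50 of 77 with all libraries. It was 0.01 without vehicle 3, 0.10 without vehicle 1 and 0.11 without ivermectin 1. In ivermectin 3 the cytosolic ribosomal protein genes stood 0.35 above the vehicle mean and all genes tested 0.04, and the part of the missing Yam1 in this was not tested.

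**Figure D2:**
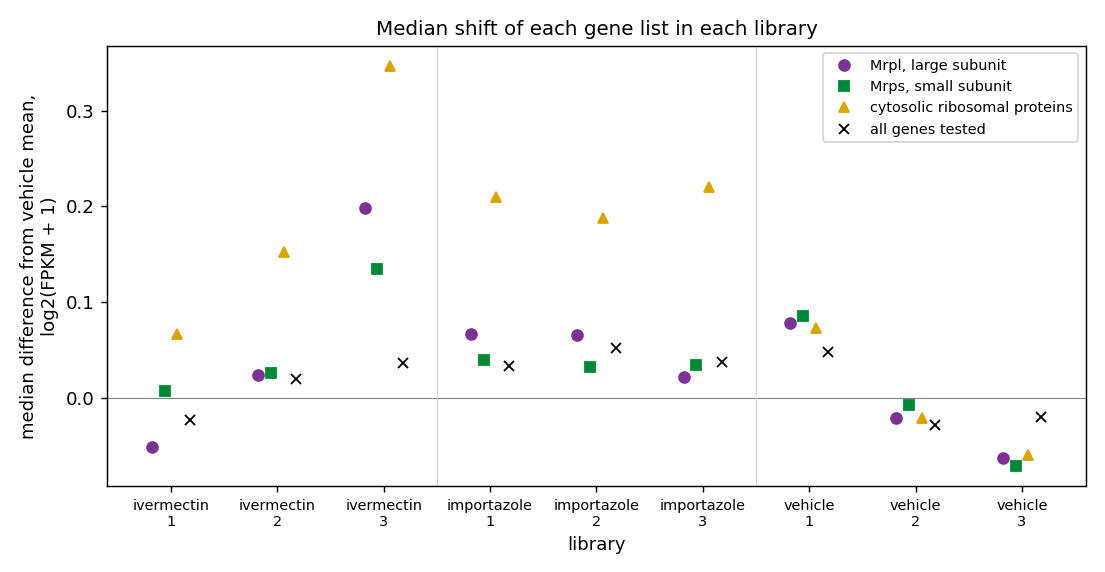
Median difference from the vehicle mean on the log2(FPKM + 1) scale in each library, for large subunit genes, small subunit genes, cytosolic ribosomal protein genes and all genes tested; each point is the median over 1 gene list in 1 library. Ivermectin 3 is the highest for all 3 ribosomal lists, and ivermectin 1 and 2 lie within the range of the vehicle libraries for both mitochondrial lists.

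Nearest to the threshold with ivermectin came Mrps17, a homologue of a bacterial small subunit protein. It had 72.7, 68.2 and 83.5 FPKM in ivermectin cells, 68.2, 66.3 and 67.9 FPKM in importazole cells and 65.4, 57.3 and 56.9 FPKM in vehicle cells. All 3 ivermectin values lay above all 3 vehicle values, with a log2 change of 0.32 ± 0.08 (SE) and a limma adjusted p of 0.0587. Mrps16, variants of which cause a fatal mitochondrial disease in humans, had 101.1, 105.3 and 126.5 FPKM with ivermectin, 100.1, 85.0 and 84.2 FPKM with importazole and 86.7, 92.1 and 78.9 FPKM with vehicle. Its ivermectin values again lay above all vehicle values, with a log2 change of 0.36 ± 0.10 (SE) and a limma adjusted p of 0.0715.

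Mrps21, whose values are given above, had the opposite sign, with every ivermectin value below every vehicle value (log2 change -0.26 ± 0.07 SE, limma adjusted p of 0.0754). Mrps21 has 3 near-identical pseudogenes in the annotation, at 90.9% to 97.3% identity over 64% to 65% of the transcript, so its counting is uncertain. Mrpl3, a large subunit protein whose variants cause cardiomyopathy in humans, had 24.9, 26.9 and 28.8 FPKM with ivermectin, 26.3, 22.3 and 22.3 FPKM with importazole and 23.8, 20.7 and 19.1 FPKM with vehicle. The ivermectin and vehicle values did not overlap, and the log2 change was 0.33 ± 0.10 (SE, limma adjusted p of 0.0903).

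Values of ivermectin and vehicle libraries did not overlap in 17 genes, 14 higher and 3 lower with ivermectin. That is 22.1% of the 77, against 24.6% of all genes tested (12.4% higher and 12.2% lower). The 3 lower ones were Mrpl16, Mrpl18 and Mrps21. Exons of Mrpl18 overlap those of Tcp1 on the other strand by 141 bases, so the Mrpl18 value is uncertain. Mrpl52, a large subunit protein found only in mitochondrial ribosomes, had the largest negative change but overlapped, with 31.8, 38.6 and 53.6 FPKM in ivermectin cells and 57.8, 53.7 and 39.8 FPKM in vehicle cells (limma adjusted p of 0.357). Leaving out 1 library brought 1 call each, of Mrps17 without ivermectin 2, of Mrps21 without vehicle 3 and of Mrpl30 without vehicle 1. Mrpl30 has near-identical pseudogenes, at 90.5% to 94.8% identity, so its counting is uncertain. Mrpl57 and Mrps35, with log2 changes of -0.22 and 0.29, had limma adjusted p values of 0.300 and 0.138.

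Importazole against vehicle gave 1 call. Mrpl16, a homologue of a bacterial large subunit protein beside the site where tRNAs bind, had 10.97, 11.34 and 10.29 FPKM in importazole cells, against 14.9, 14.5 and 16.0 FPKM in vehicle cells. The means were 10.9 ± 0.54 FPKM and 15.1 ± 0.80 FPKM (SD, n = 3 each), and the 2 groups stood well apart. Mrpl16 fell with a log2 change of -0.44, a 95% interval of -0.61 to -0.28 and a limma adjusted p of 0.0116. In ivermectin cells Mrpl16 had 11.8, 13.4 and 12.7 FPKM, also below all vehicle values, with a log2 change of -0.25 and a limma adjusted p of 0.101. Both comparisons use the same vehicle libraries. Against importazole the ivermectin values were higher in all 3 libraries, at a log2 difference of 0.20 (95% interval 0.03 to 0.36), which did not pass at a limma adjusted p of 0.186.

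The Mrpl16 call depended on single libraries. It was lost when vehicle 3, importazole 1 or importazole 3 was left out, with limma adjusted p values of 0.0569, 0.0505 and 0.0561, while the log2 change stayed between -0.50 and -0.40 over all 21 settings. Mrpl16 lies on chromosome 19 (11770391 to 11774960, plus strand, GRCm38). It has no near-identical pseudogene in the annotation and no exon shared with a tested gene on the other strand. Mrpl16 is 1 of 77, or 1.30%, against 2.26% of all genes tested in this comparison (1.69% higher and 0.565% lower).

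The other 76 genes did not pass with importazole. Their median log2 change, Mrpl16 included, was 0.06, against 0.04 for the whole set of tested genes, with 0.06 for the large subunit and 0.05 for the small subunit. Without vehicle 3 it was 0.02, below the 0.03 of all genes tested, and without vehicle 1 it was 0.09. At an unadjusted p under 0.05, 5 were higher and 1 lower, 7.79% of the 77, against 15.8% of all genes tested. The 3 importazole libraries lay close together, with median differences from the vehicle mean of 0.06, 0.06 and 0.03, inside the range of -0.07 to 0.09 of the vehicle libraries. Values did not overlap in 13 genes, 8 higher and 5 lower, 16.9% of the 77, against 23.6% of all genes tested (16.5% higher and 7.07% lower).

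Mrpl45, which lies at the polypeptide exit and anchors the ribosome to the inner membrane, had the largest positive change. It had 22.8, 22.2 and 22.9 FPKM in importazole cells, 18, 17.4 and 23.2 FPKM in ivermectin cells and 16.8, 15.3 and 18.8 FPKM in vehicle cells. The importazole values lay above all vehicle values (log2 change 0.40 ± 0.11 SE, limma adjusted p of 0.0931). Mrps35, a small subunit protein found only in mitochondrial ribosomes, had 89.0, 91.1 and 81.6 FPKM with importazole, 74.7, 79.2 and 99.3 FPKM with ivermectin and 73.3, 63.3 and 68.8 FPKM with vehicle. Its log2 change with importazole was 0.35 ± 0.10 (SE), with a limma adjusted p of 0.118. Both Mrpl45 and Mrps35 passed only when ivermectin 3 or all ivermectin libraries were left out of the fit. Mrpl45 has 1 near-identical pseudogene.

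Mrpl47 and Mrps2 followed, with log2 changes of 0.25 and 0.23 and limma adjusted p values of 0.523 and 0.169 with importazole. On the negative side, after Mrpl16, came Mrpl18, Mrpl13 and Mrps18c with -0.18, -0.17 and -0.15 and limma adjusted p values of 0.340, 0.335 and 0.580. None of these 5 passed.

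**Figure D3:**
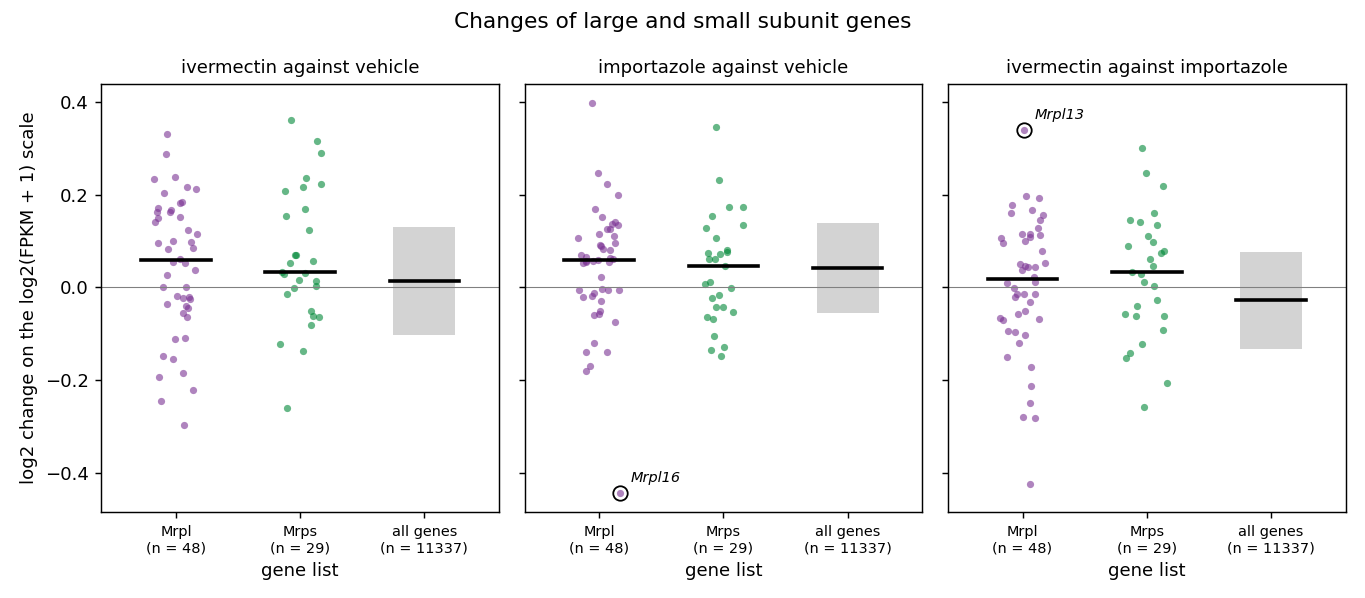
Log2 change on the log2(FPKM + 1) scale for each of the 48 Mrpl and 29 Mrps genes in the 3 comparisons; each point is a gene, bars are medians, grey boxes span the quartiles of the 11337 genes tested, and circles mark the genes past an adjusted p of 0.05. Both subunits are centred close to 0 in each comparison, and Mrpl16 and Mrpl13 are the 2 genes past the threshold.

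Ivermectin set directly against importazole gave 1 call of another gene, Mrpl13, a homologue of a bacterial protein that joins the large subunit early in assembly. Mrpl13 had 47.97, 49.7 and 59.5 FPKM in ivermectin cells, against 41.0, 40.7 and 41.2 FPKM in importazole cells. The vehicle values, 48.5, 45.5 and 44.7 FPKM, lay above the importazole values and overlapped the ivermectin values. Mrpl13 was higher in ivermectin cells by a log2 difference of 0.34, with a 95% interval of 0.16 to 0.52 and a limma adjusted p of 0.0459. Against vehicle it was not called in either direction, with log2 changes of 0.17 for ivermectin and -0.17 for importazole at limma adjusted p values of 0.257 and 0.335.

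This call was the less steady one. It held in 8 of 21 settings. Leaving out any library other than ivermectin 1 ended it, at limma adjusted p values of 0.0505 without vehicle 1 to 0.139 without importazole 2. Exons of Mrpl13 overlap those of Mtbp on the other strand by 330 bases, and no source used here says whether strand was used in counting, so the Mrpl13 value is uncertain. Mtbp itself averaged 10.6 ± 1.40, 11.9 ± 0.57 and 10.0 ± 1.29 FPKM (SD, n = 3 each) in ivermectin, importazole and vehicle cells. Mrpl13 is 1 of 77, against 3.42% of all genes tested in this comparison (0.714% higher and 2.71% lower in ivermectin cells).

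Over the 77 genes the median log2 difference between ivermectin and importazole was 0.03, against -0.03 over all genes tested, with 0.02 for the large subunit and 0.03 for the small subunit. Its sign turned without ivermectin 3, to -0.0049 with 38 of 77 genes above 0 against 44 with all libraries, and without ivermectin 1 or importazole 1 it was 0.07 or 0.02. At an unadjusted p under 0.05, 7 were higher and 4 lower with ivermectin, 14.3% of the 77, against 19.0% of all genes tested. Values did not overlap in 16 genes, 8 in each direction, 20.8% of the 77, against 24.2% of all genes tested (8.04% higher and 16.1% lower). Mrpl52 had the largest negative difference, -0.42, with ivermectin values of 31.8, 38.6 and 53.6 FPKM against 54.4, 54.4 and 54.8 FPKM with importazole (limma adjusted p of 0.212). The importazole values of Mrpl52 were nearly equal, and the ivermectin values spread over a wide range. Without ivermectin 3 Mrpl52 passed, at a limma adjusted p of 0.0486, and its log2 difference ran from -0.623 to -0.255 over all 21 settings. Mrps6, a homologue of a bacterial small subunit protein, averaged 77.4 FPKM with ivermectin and 92.6 FPKM with importazole, without overlap (log2 difference -0.26, limma adjusted p of 0.0702). Mrps16 and Mrps31 lay at 0.30 and 0.25, and Mrpl57 and Mrpl37 both at -0.28, with limma adjusted p values of 0.131, 0.109, 0.210 and 0.378. Mrps18c, at 0.22 (limma adjusted p of 0.340), also did not pass.

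None of the 18 genes of known function was called in any of the 3 comparisons, where 4.31%, 2.26% and 3.42% of all genes tested were called. The stalk that recruits translation factors is built from Mrpl10 and Mrpl12. Mrpl12 had 95.4, 103.9 and 124.1 FPKM with ivermectin, 107.6, 107.0 and 104.9 FPKM with importazole and 110.0, 104.2 and 94.2 FPKM with vehicle, groups that overlapped, and log2 changes against vehicle of 0.06 and 0.05 for ivermectin and importazole. Mrpl10, the base of the stalk, averaged 34.0 FPKM with ivermectin, 30.7 FPKM with importazole and 29.4 FPKM with vehicle, with limma adjusted p values against vehicle of 0.103 and 0.715. Mrpl44, whose variants cause infantile cardiomyopathy in humans, averaged 17.6 FPKM with ivermectin, 17.5 FPKM with importazole and 17.6 FPKM with vehicle. Its log2 change with ivermectin was 0.00, with a 95% interval of -0.21 to 0.22. Exons of Mrpl44 overlap those of Wdfy1 on the other strand by 126 bases, so the Mrpl44 value is uncertain.

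Around the decoding centre of the small subunit, Mrps12 averaged 41.4, 44.1 and 41.4 FPKM and Mrps5 53.0, 52.6 and 51.0 FPKM in the ivermectin, importazole and vehicle groups. The 95% interval of the Mrps5 change was -0.08 to 0.19 with ivermectin and -0.09 to 0.18 with importazole. Mrps12 was the widest of the genes of known function, at -0.28 to 0.31 and -0.18 to 0.40, and its vehicle libraries stood at 51.7, 36.4 and 36.0 FPKM. Mrps7, an early binder of the small subunit, averaged 45.5, 43.5 and 45.5 FPKM in the ivermectin, importazole and vehicle groups, and Mrps14 61.3, 57.2 and 59.9 FPKM. Of the disease genes, Mrps28 had a log2 change of 0.01 with each treatment, and Mrps22 and Mrps34 had 0.15 and 0.03 with ivermectin and 0.01 and -0.10 with importazole. Exons of Mrps34 overlap those of Mapk8ip3 on the other strand by 1309 bases, and exons of Mrps7 overlap those of Gga3 by 127 bases. Strand use in counting is unknown, so the Mrps34 and Mrps7 values are uncertain.

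Some names do not match the subunit. Mrps30 and Mrps18a are named for the small subunit but sit in the large one, and Mrps36 is now counted as a part of the 2-oxoglutarate dehydrogenase complex. Mrps30 had 16.7, 16.6 and 18.1 FPKM with ivermectin, 16.6, 16.2 and 17.3 FPKM with importazole and 15.1, 15.1 and 14.0 FPKM with vehicle. Both treated groups of Mrps30 lay above the vehicle values without overlap, at log2 changes of 0.21 and 0.17, but limma adjusted p values of 0.119 and 0.249 did not pass. The 3 Mrps18 paralogues averaged 49.8, 50.7 and 47.95 FPKM (Mrps18a), 32.5, 30.3 and 27.9 FPKM (Mrps18b) and 34.1, 28.99 and 32.4 FPKM (Mrps18c) in the ivermectin, importazole and vehicle groups. Mrps18b and Mrps18c have near-identical pseudogenes, at up to 99.8% and 94.6% identity, so their counting is uncertain. Mrps36 averaged 40.0, 37.8 and 41.7 FPKM and has 7 near-identical pseudogenes. Sorting the genes by their place in the ribosome, 50 large and 26 small, gave medians of 0.06 and 0.03 with ivermectin, 0.06 and 0.03 with importazole, and 0.02 and 0.04 for ivermectin against importazole.

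**Figure D4:**
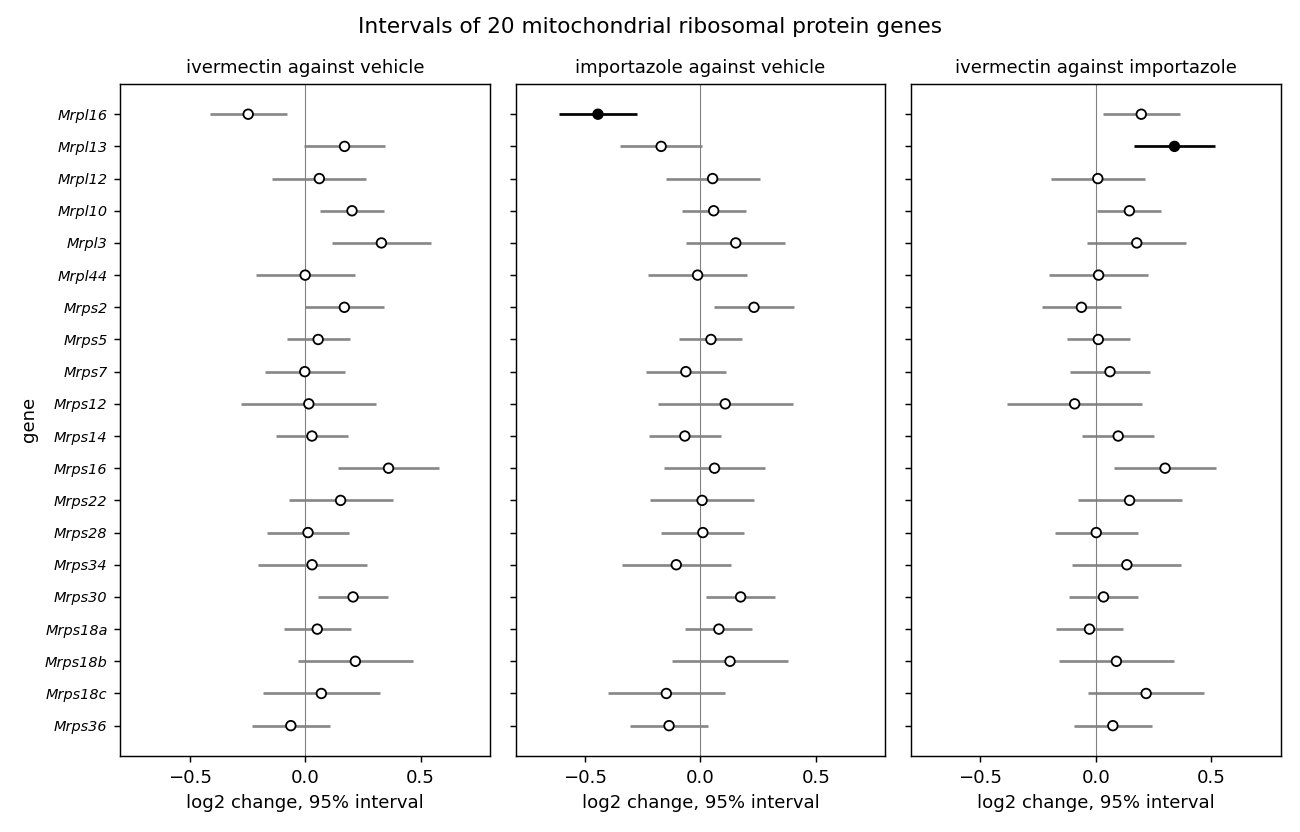
Log2 change and 95% interval on the log2(FPKM + 1) scale for Mrpl16, Mrpl13 and the 18 genes of known function in the 3 comparisons; filled points mark an adjusted p under 0.05. Mrpl16 with importazole, at -0.44, and Mrpl13 for ivermectin against importazole, at 0.34, are the filled points, and the interval of Mrpl44 with ivermectin is centred on 0.00.

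Some proteins of this ribosome carry no Mrp name. None of the 6 examined, Dap3, Chchd1, Aurkaip1, Ptcd3, Gadd45gip1 and Ict1, was called in a comparison. Ptcd3, a small subunit protein at the messenger RNA entrance, averaged 21.5 ± 1.92 FPKM with ivermectin, 20.3 ± 1.32 FPKM with importazole and 17.5 ± 0.65 FPKM with vehicle (SD, n = 3 each). Its log2 change with ivermectin was 0.28, with a limma adjusted p of 0.0759. Chchd1, another small subunit protein, had 85.1, 92.3 and 99.99 FPKM with ivermectin, 74.99, 77.4 and 74.9 FPKM with importazole and 82.4, 75.6 and 79.6 FPKM with vehicle. The ivermectin values were above all others, and the log2 difference from importazole was 0.28 with a limma adjusted p of 0.0501.

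Of 45 factors of mitochondrial transcription, translation and ribosome assembly, 41 were tested and 1 was called, with ivermectin. That is 2.44% of the 41, against 4.31% of all genes tested in that comparison. Lrpprc, which stabilizes mitochondrial messenger RNAs, had 28.3, 26.6 and 25.9 FPKM in ivermectin cells, 25.2, 24.1 and 27.2 FPKM in importazole cells and 19.9, 21.6 and 21.6 FPKM in vehicle cells. Every treated value lay above every vehicle value. Lrpprc rose with ivermectin (log2 change 0.34, limma adjusted p of 0.0210), and with importazole its log2 change was 0.27 at a limma adjusted p of 0.0893. The next smallest p values with ivermectin were those of Rpusd4 and Gtpbp10, with log2 changes of 0.35 and 0.36 and limma adjusted p values of 0.0753 and 0.0871. With importazole, Tufm, the elongation factor that delivers tRNA, had a log2 change of -0.21 and Gfm2, a factor for ribosome recycling, one of -0.28, with limma adjusted p values of 0.0981 and 0.140. For ivermectin against importazole, Gfm2 and Tufm lay at 0.32 and 0.21 and Nsun4, which methylates the ribosomal RNA of the small subunit, at 0.23, with limma adjusted p values of 0.0746, 0.0767 and 0.136. Apart from Lrpprc with ivermectin none of these passed. The median log2 change of the 41 factors was 0.11 with ivermectin and 0.06 with importazole, and 0.07 for ivermectin against importazole. Over all genes tested the medians were 0.01, 0.04 and -0.03 in the same order.

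The proteins that this ribosome makes are encoded by 13 mitochondrial genes. With importazole 7 of the 13 were called lower, at a median log2 change of -0.45. Of the mitochondrial ribosomal protein genes 1 of 77 was called, at a median of 0.06. Of all genes tested 2.26% were called (1.69% higher and 0.565% lower), at a median of 0.04. With ivermectin 1 of the 13, mt-Nd3, was called higher (limma adjusted p of 0.0494), against 4.31% of all genes tested (1.79% higher and 2.52% lower). The median of the 13 was 0.06. For ivermectin against importazole 11 of the 13 were called higher, at a median of 0.52. Of all genes tested 3.42% were called there (0.714% higher and 2.71% lower). The cytosolic ribosomal protein genes, 77 tested, had median log2 changes of 0.19 with ivermectin, 0.21 with importazole and -0.01 between the treatments. Of them 1, 2 and 0 were called, against 4.31%, 2.26% and 3.42% of all genes tested. With each treatment 75 of these 77 cytosolic genes lay above 0, against 53.3% of all genes tested with ivermectin and 61.4% with importazole. Their median differences from the vehicle mean were 0.07, 0.15 and 0.35 in ivermectin 1, 2 and 3, the last of which listed Yam1 at 0. They were 0.21, 0.19 and 0.22 in importazole 1, 2 and 3, and 0.07, -0.02 and -0.06 in vehicle 1, 2 and 3. Differences between these lists were not tested.

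The 77 genes lie on 17 chromosomes, with 10 on chromosome 11. Of the 77, 32 (41.6%) have the start of a tested gene on the other strand within 1000 bases of their own, against 15.9% of 10310 tested protein-coding genes. Mrpl46 and Mrps11, one of each subunit, are such a pair with each other. Their exons overlap by 173 bases on opposite strands, and strand use in counting is unknown, so both values are uncertain. Their means were 20.1, 19.3 and 19.6 FPKM for Mrpl46 and 68.8, 64.1 and 65.6 FPKM for Mrps11 in the ivermectin, importazole and vehicle groups, and Mrps11 had the higher level in every group. Mrps12 starts 172 bases from Sars2, the mitochondrial seryl-tRNA synthetase, at 6.55, 6.68 and 6.91 FPKM in the same groups. Mrpl36 and Mrpl47 overlap Ndufs6 and Ndufb5, which encode parts of respiratory complex I, by 30 and 616 exon bases on the other strand. Their values are uncertain for the same reason.

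Promoter sequence was available from RefSeq (GRCm38.p6) for 68 of the 77 genes, as 74 windows of 250 bases before to 50 after the start. The windows were searched on both strands for cores of the motifs of 3 factors known to act on genes of mitochondria and ribosomes: CCGGAAG for the ETS family, AAGATGG for YY1 and CGCATGC for NRF1, of which the ETS and YY1 cores may share the letters AAG. The ETS core lay in a window of 25 of the 68 genes (36.8%), against 21.7% of 8395 tested genes and 9.93% of 27025 genes in the table. The YY1 core lay in 13 (19.1%), against 8.84% and 7.28%, and the NRF1 core in 8 (11.8%), against 7.98% and 4.02%. By subunit the ETS core lay in 14 of 42 large and 11 of 26 small subunit genes, the YY1 core in 7 and 6, and the NRF1 core in 7 and 1. A match of letters shows no binding.

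Stretches before the start of 4 genes show the range of these windows, with the motif letters in capitals. Mrpl16 is given as the gene that fell with importazole, and it holds none of the 3 cores. Mrpl22 holds an ETS core and an NRF1 core on both strands, Mrpl52 a YY1 core and, on the other strand, an ETS core, and Mrps22 an ETS core at its end. The stretches are chr19:11770165-11770390 (plus strand), chr11:58171414-58171660 (plus), chr14:54426659-54426908 (plus) and chr9:98601680-98601929 (minus), read 5′ to 3′ along the gene and ended before the first annotated exon.
Mrpl16: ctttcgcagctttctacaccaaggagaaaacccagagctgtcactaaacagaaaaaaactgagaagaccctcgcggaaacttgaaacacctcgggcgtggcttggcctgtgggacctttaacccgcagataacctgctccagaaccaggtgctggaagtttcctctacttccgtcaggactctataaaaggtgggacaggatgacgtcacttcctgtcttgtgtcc
Mrpl22: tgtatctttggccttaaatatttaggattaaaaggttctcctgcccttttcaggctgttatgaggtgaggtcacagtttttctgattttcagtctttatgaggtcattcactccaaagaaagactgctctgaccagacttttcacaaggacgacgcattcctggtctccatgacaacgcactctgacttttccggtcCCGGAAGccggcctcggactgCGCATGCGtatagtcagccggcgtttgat
Mrpl52: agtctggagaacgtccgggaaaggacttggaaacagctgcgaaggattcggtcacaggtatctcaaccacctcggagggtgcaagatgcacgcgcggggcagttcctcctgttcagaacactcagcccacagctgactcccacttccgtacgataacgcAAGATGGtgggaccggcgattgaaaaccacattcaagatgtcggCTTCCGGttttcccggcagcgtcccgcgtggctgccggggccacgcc
Mrps22: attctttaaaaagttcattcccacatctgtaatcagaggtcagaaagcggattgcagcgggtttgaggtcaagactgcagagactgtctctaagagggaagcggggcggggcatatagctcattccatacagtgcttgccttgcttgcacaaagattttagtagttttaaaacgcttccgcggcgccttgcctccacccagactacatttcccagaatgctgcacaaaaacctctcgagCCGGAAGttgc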

How the data were processed

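Poly(A) RNA of 9 HL-1 libraries was read on the Ion Proton system, per the labels' protocols. The authors deposited 1 FPKM value per gene symbol and library, per the file headers. STAR, Bowtie2, Bowtie, Cufflinks and the builds mm10 and GRCm38 appear in the submitters' processing notes. Their versions and roles, the annotation, strand and filters could not be taken from the sources used here. FPKM is relative to the fragments of its library, so a value can move with other transcripts there. Groups were taken from the labels' titles.

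Repeated lines of 48 symbols were added up, and the 11337 genes that reached 1 FPKM in 3 or more of the 9 libraries were kept. Changes were fitted on log2(FPKM + 1), a scale that understates changes of low genes, with limma 3.58.1 in R 4.3.3 (trended, robust, all 3 groups in 1 fit). P-values were two-sided and adjusted by Benjamini-Hochberg over 11337 genes, with a threshold of 0.05. The fit was run on simulated data whose changes were larger than those of the mitochondrial ribosomal protein genes. That run does not show how well changes of their size are found. Transcript length, overlaps and pseudogenes came from GENCODE M21, with near-identical copies found by BLAST 2.17.0 (at least 90% identity over at least 50% of the transcript). Named genes were those past the threshold, the 4 largest changes in each direction and comparison, the 3 highest and lowest vehicle levels in each subunit, and 18 genes of known function. Others are named as examples chosen after their values were seen. Members and lists were chosen with earlier results of these data known. Alternatives were other pseudocounts, filters, scalings, a length and GC correction, a replicate block, no trend, only the 6 samples compared, and leaving out libraries.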

Additional observations from a re-analysis of the deposited data

How the results depend on the processing

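Of 2280 log2 changes of 38 named genes under an alternative, 2231 kept their side of the threshold and moved by less than their error. Another 16 became weaker, 16 stronger, 17 moved and 0 reversed. Filters, the replicate block, no trend and only the 6 samples compared cannot move a log2 change. Nor can leaving out a library of the group not compared. Those alternatives could change only the adjusted p, so the 2231 overstate how steady the changes were. The count of mitochondrial ribosomal protein genes called with ivermectin, 0, was 1 with a filter at 5 FPKM or a length and GC correction, 2 with median-of-ratios scaling and 4 with quantile normalization, and 0 to 1 with a library left out. With importazole the count of 1 was 3 when only the 6 samples compared were fitted, and 0 to 3 with a library left out. For ivermectin against importazole the count of 1 was 0 with no filter, without the intensity trend, with only the 6 samples compared and without the libraries listing Yam1 at 0, 2 with the length and GC correction, 3 with quantile normalization and 0 to 1 with a library left out. Correlations of deviations ran from -0.21 to 0.145 between libraries of the same replicate number and from -0.22 to 0.307 between those of unlike numbers. These values cannot show whether the libraries were paired. With a replicate block the 3 counts were 0, 1 and 0. The large minus small difference in median change, 0.03 with ivermectin, was -0.0154 without the libraries listing Yam1 at 0 and -0.0233 to 0.0301 with a library left out. With importazole it was 0.01, and -0.0241 to 0.0217 with a library left out. For ivermectin against importazole it was -0.02, and 0.0244 with the length and GC correction and -0.0503 to 0.0541 with a library left out. Quantile normalization and median-of-ratios scaling moved the median change of the 77 genes to 0.0093 and 0.0125 with importazole, and to 0.0817 and 0.0631 for ivermectin against importazole. Sorting subunits by structure turned the level difference of importazole 2 to -0.15. Calls over all genes, 489, 256 and 388 in the 3 comparisons, fell to 211, 133 and 177 with no filter, to 190, 161 and 231 without the libraries listing Yam1 at 0, and ivermectin calls to 273 with only the 6 samples compared. For these the cause was not tested. Unknown depth leaves the counting error of low genes out of reach.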

Other observations

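The 4 hyphenated symbols, which name pseudogenes, were also listed with values. Mrpl23-ps1 averaged 23.3 FPKM with ivermectin, 21.5 FPKM with importazole and 21.3 FPKM with vehicle, and matches the Mrpl23 transcript at 100% identity over 78% of its length. Mrps36-ps2 averaged 16.9, 17.5 and 17.3 FPKM, Mrpl48-ps 10.0, 8.26 and 8.17 FPKM and Mrps36-ps1 7.61, 6.38 and 7.99 FPKM in the same groups. None of the 4 was called by limma in any comparison. Of the 77 mitochondrial ribosomal protein genes, 13 have at least 1 near-identical pseudogene, and 18 share exon bases with a tested gene on the other strand. Leaving out the 13 gave median log2 changes of 0.05, 0.06 and 0.03 over 64 genes for ivermectin against vehicle, importazole against vehicle and ivermectin against importazole.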
